A study of Homo sapiens with 47 samples.

Results

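The mitochondrial ribosomal protein (MRP) genes, which encode the proteins of the ribosome inside mitochondria, were examined in single HEK293 cells. Members were all rows of the count table whose symbol begins with MRPL or MRPS followed by a digit, which gave 80 of 18650 endogenous gene rows. Of these, 46 were coding MRPL genes, 28 were coding MRPS genes and 6 were pseudogene rows. The samples were 47 single cells of HEK293, an established human embryonic kidney line, all of the 1 run that the series title names, grown in DMEM with glutamine and serum. The labels name no treatment and no comparison group, and the cells shared 1 microfluidic circuit, so cells are described against each other and are not replicates of a condition. Cells are named by the number in their labels. Each cell received ERCC spike-ins, synthetic RNAs of known amount, and transcripts were counted by unique molecular identifiers (UMIs) at their 5′ ends. A UMI stands for 1 captured molecule, so counts of different genes do not scale with transcript length, although capture can differ between genes.

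Mitochondrial ribosomes translate the few mRNAs encoded by mitochondrial DNA, which specify subunits of the oxidative phosphorylation complexes. Their ribosomal RNAs are also encoded in mitochondrial DNA, whereas their proteins are encoded in the nucleus, made on cytosolic ribosomes and imported. One class of these proteins descends from bacterial ribosomal proteins, and another is found in mitochondrial ribosomes and has no bacterial counterpart.

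A cell had 26608 to 132376 nuclear-encoded UMIs (median 56500) and 2573 to 4717 spike-in UMIs. Shares are of the nuclear-encoded UMIs of a cell, which leave out mitochondrially encoded RNA, so that this RNA is not part of the denominator. Of the HEK293 markers, VIM and UCHL1 had UMIs in 47 of 47 cells, NEFM in 42 and NEFL in 30, and NEFH had no row. The blood markers PTPRC, HBB and CD3E had no row either. Kidney, fibroblast and liver markers with a row summed to 33 UMIs or fewer each over all cells, the highest being LHX1. Cell 52 stood apart, with 14.8 mitochondrially encoded mRNA UMIs per 100 nuclear-encoded UMIs against at most 5.39 in the other cells. The main relations with this RNA are given with and without cell 52.

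The start regions of the genes are shown first, because a 5′ count reads molecules from these starts and because 2 short motifs were in a larger share of these windows than of all coding windows. RefSeq windows (build GRCh38.p14, another build than that of the counts) from 250 bases before to 50 bases after the start were matched for 65 of 74 coding members, with 15843 protein-coding windows as background. The motifs below were searched on both strands, and none of them contains another. The letters AAGATGGCG, the core of a YY1 motif, were in 13 member windows (20.0%) and in 434 of all coding windows (2.74%). The letters CCGGAAGT, an ETS-family motif, were in 11 (16.9%) against 981 (6.19%). GCGCATGCG, the core of the NRF1 motif, was in 3 members, MRPL17, MRPL22 and MRPS18C (4.62%, against 2.76%). GGGCGG, the SP/KLF motif, was in 40 (61.5%, against 58.5%), and CCAAT, the NF-Y motif, was in 19 (29.2%, against 36.4%). No test was made of these shares, a match is only a match of letters, and 9 coding members had no window in the table and were not searched.

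Runs of 30 bases with the ETS letters are shown for 6 of the 11 genes, among them MRPL20, MRPL51 and MRPL52, which are among the most abundant members. They are written 5′ to 3′ on the strand of the gene, with the match, in either orientation, in capitals.
MRPL20 (chr1:1407319-1407348, minus strand): cgaccttcgccCCGGAAGTatcgcaggggc
MRPL27 (chr17:50373174-50373203, minus strand): acttttcgagaCCGGAAGTgagtgatcgaa
MRPL3 (chr3:131502985-131503014, minus strand): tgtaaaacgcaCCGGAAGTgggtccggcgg
MRPL51 (chr12:6493364-6493393, minus strand): ggcgctccaaaACTTCCGGcaggcggaccg
MRPL52 (chr14:22829870-22829899, plus strand): aggccacgcctACTTCCGGctaccccggct
MRPS34 (chr16:1773136-1773165, minus strand): ctcttccggtgACTTCCGGccggaccgctg

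Each of the 11 genes had an ETS match that began before the annotated start, by 6 bases (MRPL52) to 209 bases (MRPL38), and in MRPL16 and MRPL52 the match ran across the start. The YY1 letters mostly lay after the start, and 6 of those 13 genes are shown, with the match in capitals.
MRPS10 (chr6:42217833-42217862, minus strand): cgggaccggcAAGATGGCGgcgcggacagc
MRPS18A (chr6:43687763-43687792, minus strand): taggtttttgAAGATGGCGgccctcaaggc
MRPS18B (chr6:30617853-30617882, plus strand): ggcgtacgtcAAGATGGCGgcgtctgtatt
MRPS24 (chr7:43869479-43869508, minus strand): cgcttggcccAAGATGGCGgcctccgtgtg
MRPS30 (chr5:44808950-44808979, plus strand): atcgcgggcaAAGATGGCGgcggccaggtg
MRPL46 (chr15:88467361-88467390, minus strand): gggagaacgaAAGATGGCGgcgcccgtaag

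The YY1 letters followed the start in 10 genes and preceded it in 3, MRPL32, MRPL36 and MRPL52. They contain ATG on the gene's strand, and in MRPS10, MRPS18A, MRPS18B, MRPS24, MRPS30, MRPL22, MRPL38, MRPL46 and MRPL50, 9 of 11 genes with the letters on that strand, this ATG was a start codon in the GENCODE v29 annotation. Over all coding windows with the letters on the gene's strand, that held for 202 of 335 genes (60.3%). The letters in these 9 genes thus overlap the first codons of the protein. MRPL38 and MRPL52 held both motifs. The median member with the ETS letters had 14.4 UMIs per cell and the median member without them 9.59, and for the YY1 letters the medians were 8.30 and 11 UMIs per cell. The ETS letters were also in MRPL53 and MRPL38, which had only 0.213 and 2.62 UMIs per cell, and these differences were not tested.

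The MRP mRNAs were of moderate abundance and nearly all were detected. The 74 coding members summed to 42462 UMIs, 27421 for MRPL and 15041 for MRPS, and 44 members had a UMI in every cell. A cell had UMIs of 65 (cell 23 among them) to 74 members (cell 43), with a median of 71. The median member had 10.6 UMIs per cell, against 2.66 for the 6124 nuclear-encoded genes that averaged 1 UMI per cell or more, which are called tested genes here. Among the coding members 72 reached that mean, and the other 2 were MRPS6 (37 UMIs in 20 cells) and MRPL53 (10 UMIs in 5 cells). The 6 pseudogene rows held 63 UMIs together, of which MRPS31P5 had 34, MRPL45P2 had 21, MRPS18AP1 and MRPS36P1 had 3 each, and MRPL32P1 and MRPL37P1 had 1 each. How reads that map to several places were treated is not given in the sources used here, so counts of genes with near-identical copies are uncertain.

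The large subunit carries the peptidyl transferase centre and the exit tunnel. Its most abundant mRNA was MRPL51, a protein without bacterial counterpart, with 36.8 ± 19.5 UMIs per cell (SD over 47 cells, here and for all levels), a lowest value of 10, a median of 32 and a highest of 92 in cell 43. MRPL20, of the bacterial L20 family, had 35 ± 19.2 (lowest 9, median 30, highest 89, also in cell 43). Cell 43 was the deepest cell, and it was also the highest for many other members. These 2 genes stood above the rest of the large subunit, although their ranges over cells overlapped those of the next genes. MRPL21, of the bacterial L21 family, had 25.7 ± 13.8 UMIs per cell. MRPL52, a mitochondria-specific protein, had 25.4 ± 12.6, and MRPL23, whose bacterial relative lies at the tunnel exit, had 24.5 ± 12.6. MRPL41, also mitochondria-specific, had 24 ± 11.1, and MRPL55, the relative of bacterial L31, had 23.2 ± 13.3. These 5 neighbours in the order differed by less than their spread over cells.

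MRPL3, whose bacterial relative reaches towards the peptidyl transferase centre, had 20.5 ± 11.4 UMIs per cell, and MRPL12, the stalk protein that contacts translation factors, had 19.7 ± 10.4. MRPL13, MRPL14 and MRPL33, of the bacterial L13, L14 and L33 families, had 19 ± 10.5, 18.7 ± 10.6 and 18.4 ± 10.7, again closer to each other than their spread. At the other end, MRPL38 had 2.62 ± 1.74 and MRPL35 3.30 ± 2.72. The means of tested members spanned 14.9-fold, from MRPL38 to MRPS21, although their proteins are parts of 1 particle.

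The small subunit binds the mRNA and decodes it. MRPS21, of the bacterial S21 family, was the most abundant member of all with 39 ± 19.3 UMIs per cell (lowest 6, median 36, highest 82 in cell 62), which placed it at rank 227 among nuclear-encoded genes. MRPS18C, the member of the MRPS18 family most like bacterial S18, had 23.1 ± 12 and MRPS24, the relative of bacterial S3 near the mRNA entry, had 20.3 ± 9.78. The mean of MRPS21 lay above that of MRPS18C by more than the SD of MRPS18C and by less than its own SD. MRPS34, a mitochondria-specific protein, had 16.3 ± 7.44 UMIs per cell. MRPS15, of the bacterial S15 family, had 16.3 ± 9.19, and MRPS33, mitochondria-specific, had 16 ± 9.19. MRPS16 and MRPS5, relatives of bacterial S16 and S5, had 14.9 ± 7.19 and 13.4 ± 8.44. The 5 most abundant MRPS mRNAs held 35.9% of small subunit UMIs, and the 5 most abundant MRPL mRNAs held 25.3% of large subunit UMIs.

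**Figure D1:**
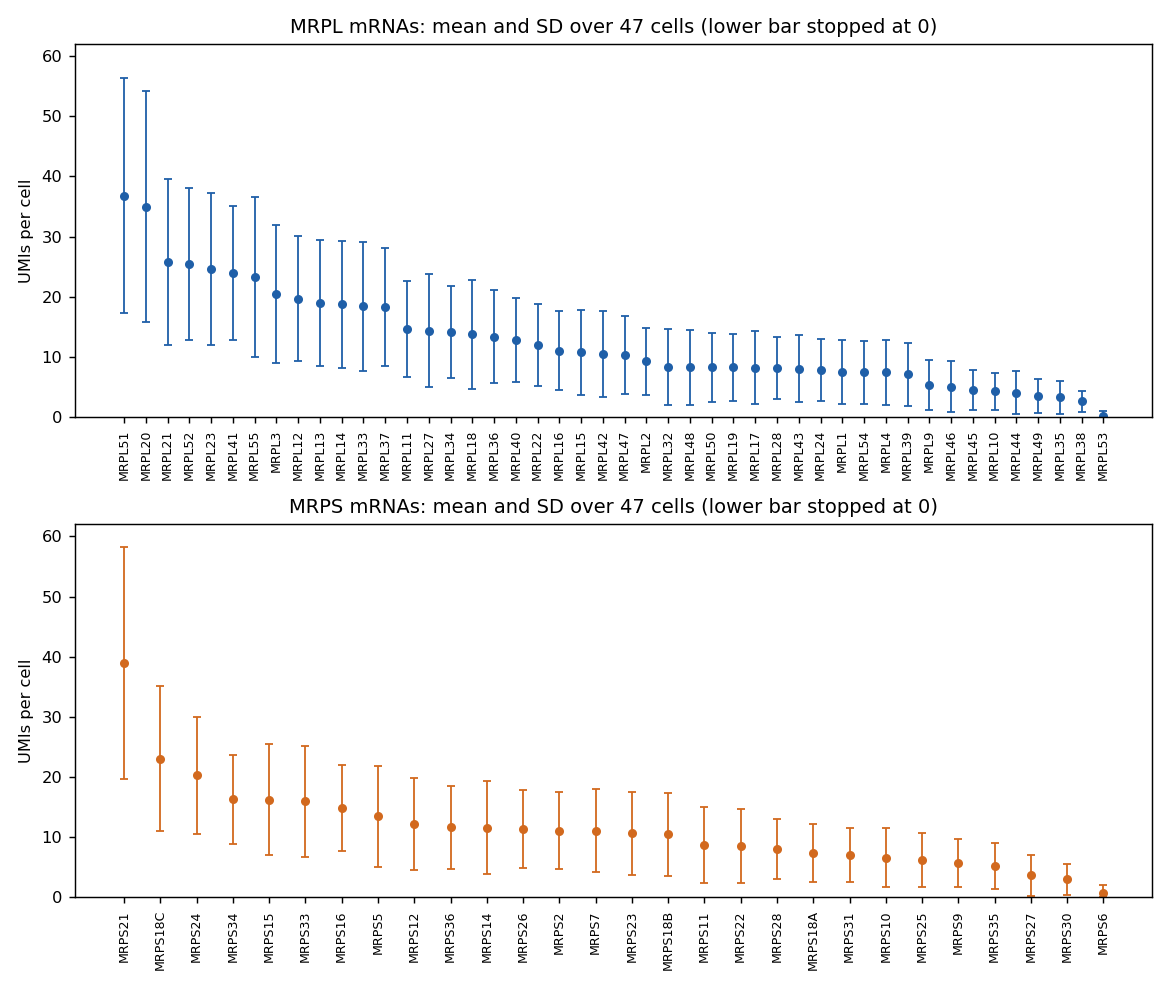
Mean UMIs per cell (y axis) of each coding member (x axis, ordered by mean), MRPL above and MRPS below, with points for means and bars for the SD over 47 cells. Means fall gradually from 39 (MRPS21) and 36.8 (MRPL51) to MRPS6 and MRPL53, which are near 0, and most neighbours lie within each other's SD.

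Symbols do not always give the position of the protein. MRPS18A and MRPS30 sit in the large subunit in structures of the human particle, and MRPS36 has been reassigned to the oxoglutarate dehydrogenase complex of the citric acid cycle. The paralogs MRPS18A, MRPS18B and MRPS18C, related to 1 bacterial protein, had 7.36 ± 4.86, 10.5 ± 6.93 and 23.1 ± 12 UMIs per cell. MRPS18C was thus the most abundant of them on average, and the ranges of the 3 paralogs overlapped. Over cells their levels were nearly unrelated, with Spearman's rho of −0.20 for A and C, −0.19 for A and B and −0.01 for B and C. The 44 members of bacterial families had a median of 11.7 UMIs per cell and the 29 mitochondria-specific members a median of 8.04, with MRPS36 at 11.7.

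Summed over members, the MRP mRNAs took a narrow range of shares. Large subunit mRNAs made up 0.980% ± 0.0900 of nuclear-encoded UMIs (SD, n = 47 cells), from 0.790% in cell 31 over a median of 0.974% to 1.19% in cell 20. Small subunit mRNAs made up 0.545% ± 0.0618, from 0.431% in cell 87 over a median of 0.535% to 0.664% in cell 31. Cell 31 was thus lowest for the large and highest for the small subunit, on 231 and 194 UMIs. Together the members made up 1.53% ± 0.111 (median 1.49%), and the extremes were 1.34% in cell 87 and 1.81% in cell 50. The exact binomial 95% intervals, which cover counting error only, were 1.22% to 1.47% in cell 87 and 1.72% to 1.90% in cell 50, so these 2 cells did not overlap. The large to small ratio was 1.82 ± 0.256, lowest in cell 31 (1.19) and highest in cell 20 (2.51), with a median of 1.84. These sums follow the symbols. With members placed by their position in the structure, the mean ratio was 1.99 and the mean shares were 0.998% and 0.507%. Large and small subunit shares were nearly unrelated over cells (rho = 0.07, r = 0.04, n = 47), and the points share the same library and denominator.

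**Figure D2:**
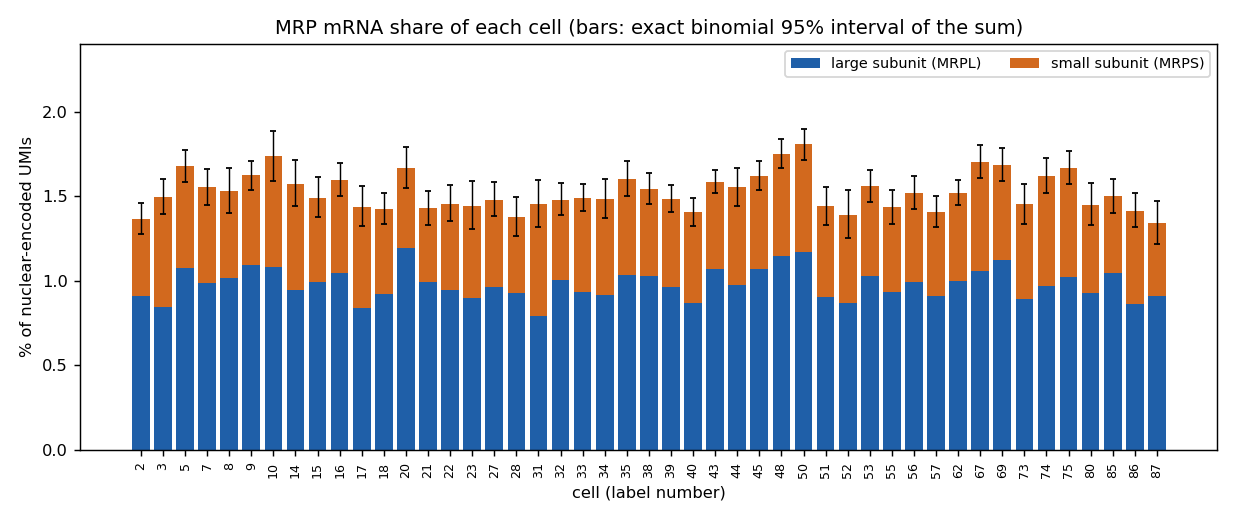
Percent of nuclear-encoded UMIs (y axis) in large subunit (blue) and small subunit (orange) mRNAs, stacked, for each of 47 cells by label number (x axis), with the exact binomial 95% interval of the sum. The sums lie between 1.34% (cell 87) and 1.81% (cell 50), and many intervals overlap.

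How far a gene varied between cells was expressed as an index of dispersion: the chi-square of its counts against the depth of each cell, per degree of freedom. It is 1 under counting error alone. A line through 45 spike-ins gave the technical index at each abundance (2.38 at a mean of 1 UMI, 2.09 at 10 and 1.83 at 100), and the ratio of a gene's index to the line was tested with the upper chi-square tail, Benjamini-Hochberg adjusted over all 6124 tested genes. By this test 5 of 72 members (6.94%) passed, against 6.47% of all tested genes and 6.97% of the 2897 genes with means in the range of the members. The share is near the background. Against counting error alone all 72 tested members passed (92.4% of all tested genes), and against 1 dispersion fitted to all spike-ins 6 did (40.3% of all tested genes). At an unadjusted p under 0.05 there were 19 members (26.4%), against 14.5% of all tested genes. For these 2 other noise models and the unadjusted p, the share in the members' range of means was not computed. All tested genes had a lower median than tested members, 2.66 against 10.7 UMIs per cell, so these backgrounds are not matched for abundance. The index lay above the line for 51 members (70.8%), against 42.5% of all tested genes and 55.2% in the members' range of means. The median ratio to the line was 1.18 for members, 0.94 for all tested genes and 1.04 for genes in that range. Single spike-ins reached an index of 3.97, and of the 5 members only MRPL55 exceeded that.

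MRPL55, the relative of bacterial L31, had the highest ratio to the line. It had 0.954 UMIs per 10000 nuclear-encoded UMIs in cell 21, a median of 3.75, 8.30 in cell 50 and 11 in cell 15. The high values were 44 UMIs in cell 15 and 68 in cell 50, against 5 in cell 21. Its index was 4.70, 2.36 times the line (adjusted p = 3.26e-05), and it passed with any 1 cell left out, with an adjusted p of 0.00714 without cell 15.

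The other 4 each rested on few cells. MRPL52, a mitochondria-specific large subunit protein, ranged from 1.88 UMIs per 10000 in cell 52 over a median of 4.31 to 12.5 in cell 10, with 8.59 in cell 8 next to it (index 3.95, ratio 2.00, adjusted p = 0.00221). Without cell 10 its ratio was 1.55 and its adjusted p 0.117. MRPS14, of the bacterial S14 family, ranged from 0.227 in cell 20 over 1.78 to 5.47 in cell 31 (index 3.73, ratio 1.80, adjusted p = 0.0149), and missed the threshold without cell 31 (adjusted p = 0.0514) or cell 16 (0.0689). Cell 31 had 16 of its UMIs and cell 20 had 1. MRPL28, of the bacterial L28 family, ranged from 0.272 in cell 62 over 1.27 to 5.04 in cell 8 (index 3.81, ratio 1.80, adjusted p = 0.0151). It missed the threshold without cell 8 (0.124), and also without cell 73 or cell 85. MRPS15, of the bacterial S15 family, ranged from 0.763 in cell 21 over 2.34 to 6.20 in cell 75 (index 3.52, ratio 1.73, adjusted p = 0.0292), and missed it without cell 75 (0.141), 21, 34 or 86. The 5 genes were highest in different cells, 15, 10, 31, 8 and 75.

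Just outside the threshold were MRPL12 (ratio 1.65, adjusted p = 0.0537) and MRPS21 (ratio 1.65, adjusted p = 0.0557), the stalk protein and the most abundant member. The smallest ratios were those of MRPL38 (0.62), MRPS35 (0.76) and MRPL10 (0.76), below the line of the spike-ins. By class, 4 of 43 tested members of bacterial families and 1 of 28 mitochondria-specific members passed, against 6.47% of all tested genes. The difference between classes was not tested.

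**Figure D3:**
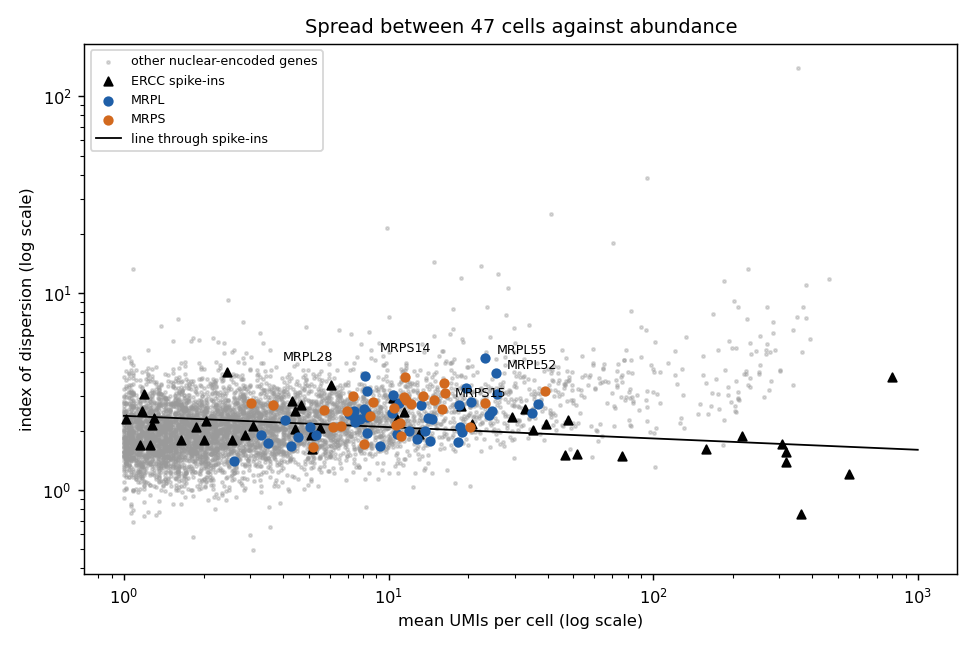
Index of dispersion over 47 cells (y axis, log scale) against mean UMIs per cell (x axis, log scale) for tested nuclear genes (grey), MRPL (blue), MRPS (orange) and spike-ins (black triangles), with the line fitted to the spike-ins. MRPL55 at an index of 4.70 is the highest member, and most members lie within the range of single spike-ins, 0.757 to 3.97.

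Scaled to nuclear-encoded totals, member mRNAs varied together about as little as other genes did. The mean pairwise Spearman's rho over cells, of UMIs scaled to nuclear-encoded totals, was 0.0212 within the large subunit (990 pairs), 0.0152 within the small subunit (351 pairs) and 0.00467 between them (1215 pairs). The mean over all pairs of tested genes was 0.0154, and over pairs in the members' range of means it was 0.0159. Among 2556 member pairs, 16 had a rho above 0.4 (0.626%, against 0.502% of all pairs) and 5 a rho below −0.4 (0.196%, against 0.285%). These shares are near the background. Under TMM scaling the means were higher, at 0.0745 within the large subunit, 0.0442 within the small subunit and 0.0464 between them, against 0.0361 over all tested genes. Each mean was above that background, the large subunit mean by most. The background in the members' range of means was not computed under TMM. The pairs share libraries, depth and denominator, and no p is given.

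The highest pair was MRPS18B with MRPL2, the bacterial L2 relative near the peptidyl transferase centre, at 0.53. The lowest was MRPS15 with MRPL28 at −0.47, and both of these genes had passed the spread test. MRPL55 had a rho of 0.40 with MRPS15 and of −0.35 with MRPS14. MRPL46 and MRPS11, divergent neighbours whose starts lie 320 bases apart in RefSeq, had a rho of −0.10. They had 5.04 and 8.74 UMIs per cell, and neither passed the spread test (ratios 0.96 and 1.32). This rho therefore cannot tell whether the pair rose and fell together over cells. For comparison, mean pairwise rho was 0.194 among cytosolic ribosomal protein mRNAs and 0.0335 among nuclear oxidative phosphorylation mRNAs. Cytosolic ribosomal protein mRNAs were also more abundant, with a median of 204 UMIs per cell against 10.7 for tested members. Between members and cytosolic ribosomal protein mRNAs it was −0.0223, and between members and oxidative phosphorylation mRNAs 0.00301.

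The index of the sums lay above the spike-in line at their abundance. The line was fitted to single RNAs and does not give the technical spread of a sum over many genes. It therefore cannot tell whether the sums varied beyond technical noise. The index of the summed members was 4.78 (line 1.61), that of the large subunit 4.61 (line 1.65) and that of the small subunit 3.65 (line 1.71). Those of cytosolic ribosomal protein mRNAs (92.0) and of nuclear oxidative phosphorylation mRNAs (14.3) were larger. The index grows with the count, so the coefficient of variation of the share is given beside it. It was 7.28% for all members, 9.18% for the large subunit, 11.3% for the small subunit, 8.35% for cytosolic ribosomal proteins and 8.0% for oxidative phosphorylation.

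The MRP share was next set against the RNA that mitochondrial ribosomes translate. Mitochondrially encoded mRNA had a median of 3.30 UMIs per 100 nuclear-encoded UMIs, from 2.31 in cell 33 to 14.8 in cell 52, and mitochondrial ribosomal RNA had 1.01 in cell 22 to 7.84 in cell 52. The MRP share was lower in cells with more mitochondrially encoded mRNA per nuclear-encoded UMI, with rho = −0.39 and r = −0.32 (n = 47). Without cell 52 these were −0.36 and −0.36, and without cells 51 and 52, the farthest from the median, −0.34 and −0.34. In the 30 cells with label numbers up to 48 rho was −0.21 and in the 17 cells above it was −0.71, a split by label number that the labels do not call a batch. The large subunit share had a rho of −0.36 and the small subunit share one of −0.12. Against mitochondrial ribosomal RNA, the rho of the MRP share was −0.23 (−0.18 without cell 52), that of the large subunit −0.26 and that of the small subunit 0.01.

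The direction depended on the scale. Per spike-in UMI, which does not use the nuclear-encoded total, cells with more mitochondrially encoded mRNA had more MRP UMIs (rho = 0.44, r = 0.30, and 0.54 and 0.57 without cell 52). In the cells with label numbers up to 48 rho was 0.69 and r 0.70, and above it rho was 0.15 and r −0.12, so the direction above 48 was not the same in both measures. Cell 52 is among the cells above 48 and was not left out of them. Against mitochondrial ribosomal RNA, rho per spike-in UMI was 0.48. MRP UMIs per spike-in UMI followed nuclear-encoded UMIs per spike-in UMI closely (rho = 0.97), and large and small subunit sums per spike-in UMI had a rho of 0.89. Both sides of each relation per spike-in UMI share the spike-in total as denominator. Cells with more nuclear-encoded UMIs had less mitochondrially encoded mRNA per nuclear-encoded UMI (rho = −0.57, r = −0.40) and a larger MRP share (rho = 0.39, r = 0.34). The latter was 0.21 in cells with label numbers up to 48 and 0.78 above. For the large subunit share it was 0.49 (0.35 and 0.78 in the same order), and for the small subunit share 0.03 (−0.14 and 0.39, of opposite sign). The difference between subunits was not tested, and the relations with the nuclear-encoded total set shares against their own denominator. With cytosolic ribosomal protein UMIs taken out of the denominator, a change chosen after seeing the data, rho of the MRP share with mitochondrially encoded mRNA was −0.22, while r was −0.38, and with the nuclear-encoded total rho was 0.12 and r 0.10. The weakening with mitochondrially encoded mRNA was thus seen in rho and not in r. These values include cell 52 and were not computed without it. The same holds for mitochondrially encoded mRNA against the nuclear-encoded total. The part of total RNA content and of the cytosolic ribosomal protein mRNAs in these relations was not tested further.

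**Figure D4:**
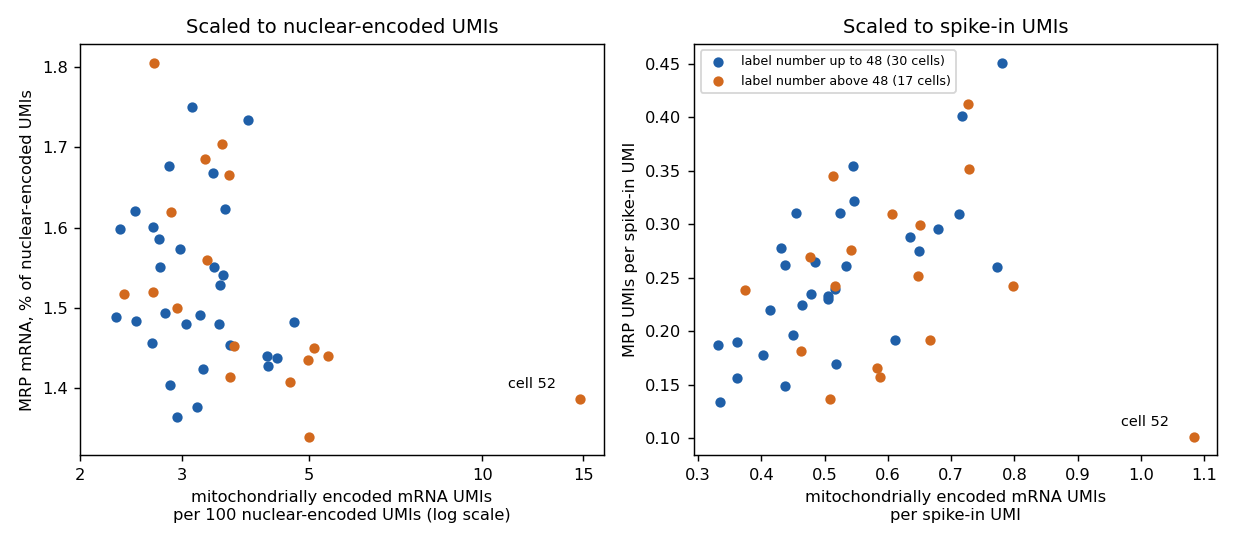
MRP mRNA (y axes) against mitochondrially encoded mRNA (x axes) in 47 cells, on the left as percent and per 100 nuclear-encoded UMIs (x axis on a log scale), on the right both per spike-in UMI, coloured by label number. Cell 52 is far right in both panels, and the relation is falling on the left (rho = −0.39) and rising on the right (rho = 0.44).

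Cell 52 had the most mitochondrially encoded mRNA and the fewest MRP UMIs. It held 369 MRP UMIs, with an MRP share of 1.39%, a large subunit share of 0.868%, a small subunit share of 0.519% and a ratio of 1.67. Its shares were thus within the range of the other cells. Its MRP UMIs per spike-in UMI, 0.101, were below the other cells (0.134 or more). Its ratio of MRP UMIs to mitochondrially encoded mRNA UMIs, 0.0936, lay outside their range of 0.267 to 0.683. It also had the fewest nuclear-encoded UMIs and the smallest share of cytosolic ribosomal protein mRNA, 22.6%, against 25.2% or more elsewhere.

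Gene by gene, members followed the distribution of other genes. Of 72 tested members, 23 (31.9%) had a positive rho with mitochondrially encoded mRNA, against 33.6% of all tested genes, and the medians were −0.07 for both. Without cell 52 it was 21 (29.2%), against 32.5%. With mitochondrial ribosomal RNA it was 32 (44.4%), against 41.4%, and with the nuclear-encoded total 54 (75%), against 73.9%. These shares are near the background.

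The lowest rho with mitochondrially encoded mRNA were those of MRPL20 (−0.46), MRPL27 (−0.40), of the bacterial L27 family near the peptidyl transferase centre, and MRPL46 (−0.33), a mitochondria-specific protein. MRPL20 ranged from 2.85 UMIs per 10000 in cell 74 to 10.0 in cell 48 (median 5.78). MRPL46 had a rho of 0.46 with MRPL20 and of 0.45 with MRPL27, both among the 16 pairs above 0.4. The highest were MRPS24 (0.28), MRPL52 (0.23) and MRPL51 (0.20). MRPS24 ranged from 1.41 UMIs per 10000 in cell 16 over 3.57 to 5.70 in cell 51. Without cell 52 these 3 were 0.24, 0.31 and 0.14, so MRPL52 passed MRPS24, and MRPS30 (0.24), MRPL43 (0.18) and MRPL10 (0.17) lay above MRPL51. At the low end MRPL20 and MRPL27 were still lowest (−0.43 and −0.37), and MRPL14 (−0.32) lay below MRPL46 (−0.29). The order at both ends thus changed in part without that cell. Genes with the ETS letters occurred at both ends (MRPL20 and MRPL27, and MRPL51 and MRPL52), as did genes with the YY1 letters (MRPL46, and MRPS24 and MRPL52).

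**Figure D5:**
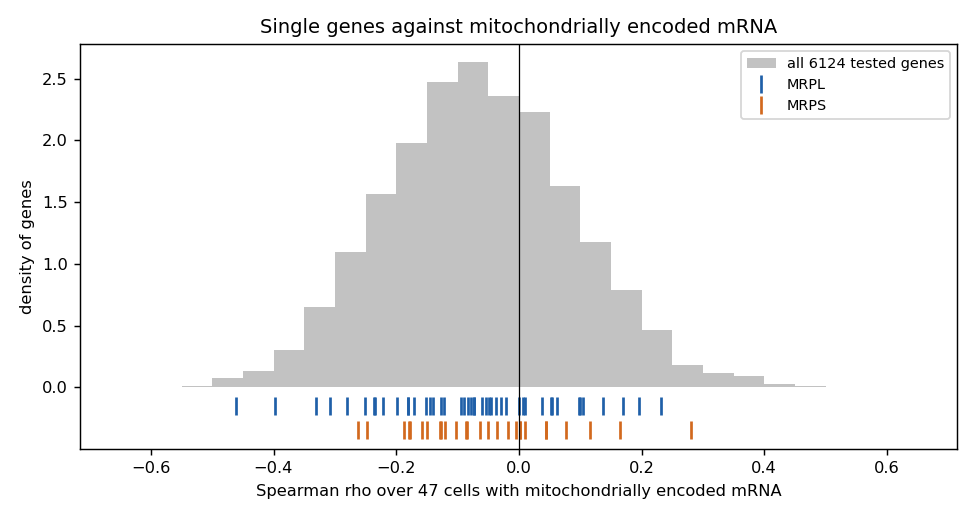
Distribution of Spearman's rho over 47 cells with mitochondrially encoded mRNA (x axis) as a density of genes (y axis) for 6124 tested genes (grey), with ticks for MRPL (blue) and MRPS (orange). Members run from −0.46 (MRPL20) to 0.28 (MRPS24) with a median of −0.07, within the grey distribution.

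Other genes of mitochondrial protein synthesis were described by list. Of 6 proteins of the particle with other symbols, 1 passed the spread test (6.47% of all tested genes did), AURKAIP1 (11.6 ± 6.01 UMIs per cell, ratio 1.96, adjusted p = 0.00334), a small subunit protein. GADD45GIP1, of the large subunit, had 20.4 ± 9.19 and CHCHD1, of the small subunit, had 8.06 ± 5.99. The levels of these proteins' mRNAs lay within those of the members.

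Of 12 tested mitochondrial translation factors and mRNA-binding proteins, 1 passed (8.33%, against 6.47% of all tested genes). It was SLIRP, which stabilises mitochondrial mRNAs (73 ± 28.3 UMIs per cell, ratio 1.79, adjusted p = 0.0166). TUFM, the elongation factor Tu, had 13.9 ± 7.26 and MTIF3, an initiation factor, had 6.66 ± 5.29. SLIRP was above every member on average, and these 2 factors were within the members' range.

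Of 21 tested assembly factors, 0 passed (6.47% of all tested genes), 0 had an unadjusted p under 0.05 (14.5%), and 20 exceeded counting error alone (92.4%). The most abundant were RPUSD3, a pseudouridine synthase, with 8.57 ± 5.51 UMIs per cell, MALSU1, an assembly factor of the large subunit, with 7.85 ± 5.86 and TFB1M, an rRNA methyltransferase, with 7.85 ± 6.42. The summed share of assembly factors had a rho of −0.48 with mitochondrially encoded mRNA, next to −0.39 for members. The sums of the other lists had −0.25 (synthetases), −0.13 (transcription), −0.07 (import), −0.06 (particle proteins with other symbols) and −0.0024 (translation factors). Nuclear oxidative phosphorylation and cytosolic ribosomal protein sums each had 0.33, so the sums did not share a direction. A sum follows its most abundant genes: SLIRP held 3431 of 5939 translation factor UMIs and had a rho of 0.15. Of the 12 tested translation factors, 4 had a positive rho, and their median rho was −0.07, as for members. Of 9 tested mitochondrial aminoacyl-tRNA synthetases, which load tRNAs, 0 passed and 0 had an unadjusted p under 0.05, while 7 exceeded counting error alone, against the same background shares. IARS2 was the most abundant with 5.45 ± 4.02 UMIs per cell, and EARS2 had 2.77 ± 2.13. The median tested assembly factor had 2.70 UMIs per cell and the median tested synthetase 2.55, against 10.7 for tested members.

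Of 8 tested genes of mitochondrial transcription and its nuclear regulators, 1 passed, POLRMT, the mitochondrial RNA polymerase (1.28 ± 2.05 UMIs per cell, ratio 1.75, adjusted p = 0.0237). TFAM, which packages mitochondrial DNA and takes part in starting its transcription, had 12 ± 7.74, YY1 had 6.11 ± 4.41 and PPRC1, a coactivator, had 3.28 ± 3.22. Among import translocases, which bring the members' proteins into mitochondria, 4 of 19 tested genes passed, TOMM7, TOMM40, TIMM8B and TIMM10. Among nuclear oxidative phosphorylation genes 23 of 74 (31.1%) passed, and among cytosolic ribosomal proteins 57 of 83 (68.7%), against 6.94% of members and 6.47% of all tested genes. These last lists held more abundant genes, and the differences between lists were not tested.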

How the data were processed

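UMI counts of 47 single HEK293 cells were used as deposited by the authors: whole numbers for each gene in each cell, without normalization. Per the submitters' processing notes, the tools and builds include cutadapt 1.2.1, STAR 2.4.0a, hg19 and GRCh37. The UMI collapse, annotation, use of strand and filter on cells are not given in the sources used here, so overlapping genes cannot be told apart. Per the labels' protocols, lysis took place in a 96-chamber circuit with 20000 spike-in molecules each and cDNA was amplified in 18 PCR cycles. A repeated header line (sum 1859, 0.0602% of all values) and 1 phiX174 UMI were left out, and 0 columns were unused. Each column name also holds a word whose meaning is not given in the sources used here.

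Totals were UMIs of 18613 nuclear-encoded rows, without 37 mitochondrially encoded rows. Genes that averaged 1 UMI per cell or more were tested for spread at an adjusted p of 0.05 (46 degrees of freedom). On counts simulated with the spike-in line as noise, unchanged genes were a larger share of this test's calls than its threshold allows. The test also takes the spike-in line as exact. Depth was 29325 to 138647 endogenous UMIs per cell, and a count of a single cell has counting error beside it. Correlations over cells are descriptions without p. Python 3.11.15, numpy 2.4.6, scipy 1.17.1 and pandas 2.3.3 were used, with R 4.3.3, edgeR 4.0.16 (TMM) and DESeq2 1.42.0 (size factors) for alternative scalings of the counts.

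Members and lists were chosen with earlier results of these data known. The YY1 and NRF1 letters are cores of longer forms that had been searched before, and the shorter letters were kept. Named members were the 12 MRPL and 8 MRPS rows with most UMIs, those past the spread test, the 3 highest and 3 lowest by index relative to the line and by rho with mitochondrially encoded mRNA, the MRPS18 paralogs, the pseudogene rows, and of other lists the 3 most abundant genes and those past the test. MRPL35, MRPS6, MRPL53, the genes of single pairs, the genes with motifs and the 2 members next to the threshold were named after their values were seen. Alternatives changed the noise model, the count minimum, the scaling, the cells used and the denominator. One gene that this rule names is not reported here.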

Additional observations from a re-analysis of the deposited data

How the results depend on the processing

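The number of members past the spread test, 5, was 72 under counting error alone (92.4% of all tested genes), 8 with TMM scaling (7.66%), 8 in cells with label numbers up to 48 (6.60%, 3 of the 5 kept), and 1 in those above 48 (2.79%, also 1 of the 5). It was 0 with the line multiplied by the highest spike-in ratio, 2.32, a setting chosen after seeing the data (0.310% of all tested genes, and 0 members at an unadjusted p under 0.05). A minimum of 20 UMIs gave 5 (4.67% of all tested genes), as did DESeq2 size factors (6.73%). A minimum of 100 UMIs (11.1%), all endogenous UMIs as total (6.35%) and leaving out cell 52 (6.23%) each gave 7. These settings all kept the same 5 genes. A single spike-in dispersion gave 6 (40.3%) and kept 1 of the 5 genes, MRPL28. Leaving out each cell in turn gave 4 (cell 16) to 7 (cells 2 and 52 among them). Apart from cell 52, the shares of all tested genes in these runs are not given here. Without the cell highest for its depth, also added later, MRPL55 remained past the test.

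TMM scaling raised mean pairwise rho to 0.0745 within the large subunit, 0.0442 within the small and 0.0464 between them, and to 0.0361 over all tested genes, and the cause was not tested. Leaving out single cells gave 0.0181 to 0.0226, 0.00922 to 0.0169 and 0.00240 to 0.00717. The rho of the MRP share with mitochondrially encoded mRNA was −0.214 and −0.713 in cells up to and above label number 48, −0.222 without cytosolic ribosomal proteins in the total (where Pearson's r was −0.380, against −0.317), and reversed to 0.445 per spike-in UMI. With single cells left out it was −0.436 to −0.358. With mitochondrial ribosomal RNA rho was −0.0750 without cytosolic ribosomal proteins and reversed to 0.480 per spike-in UMI, and −0.274 to −0.182 with single cells left out. Single-gene results stayed on their side of the threshold in 625 gene and setting combinations, passed it newly in 86 and lost it in 19, leaving out single cells aside. Most of the new passes came from counting error alone, under which all 72 tested members passed. The shares of both subunits and their ratio moved by less than the SD over cells in all settings run. No paired analysis was possible because the samples form 1 group. Depth limits single genes in single cells: a median member has 10.6 UMIs per cell.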
